A study of Mus musculus with 6 samples.

Results

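The mature neutrophil genes described here are S100a8, S100a9, Retnlg, Stfa2l1, Fpr1, Fpr2, Clec4d, Trem1 and Slpi. These 9 genes were chosen by symbol, as alarmins, formyl peptide receptors and other genes of late neutrophil life, out of 46983 genes in the deposited tables, and all are annotated as protein-coding. All 9 were found and all 9 passed the filter on low counts. They were read in RNA from colonies grown from bone marrow of C57BL/6 mice, 3 libraries labelled wild type (WT) and 3 labelled Psip1 knockout (KO). The series design gives the alleles as PsipFl/Fl for the first group, which thus carries a floxed Psip1, and PsipVav/Vav for the second. No label states which cells the Vav driver reaches, or whether the 3 libraries of a group stand for 3 animals. P-values therefore measure the spread between libraries, which may in part be technical. Mice were 8 to 11 weeks old by the age label and 8 to 10 weeks old by the growth protocol. Lineage-depleted marrow, that is marrow freed of cells with mature blood cell markers, was grown in a methylcellulose medium whose cytokines were IL-3, IL-6 and SCF (stem cell factor). Colonies were taken after 6 to 7 days, and the labels name no agent that differed between the groups. Psip1 encodes LEDGF/p75, a chromatin reader that tethers other proteins to active genes. By its title, the series asks whether blood formation can do without this protein.

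Neutrophils mature in the marrow in stages. Promyelocytes fill primary granules with proteases, myelocytes fill secondary granules with lactoferrin and cathelicidin, and the last stages load the cytosol with the alarmins S100A8 and S100A9 and put chemotactic and innate receptors on the surface. S100A8 and S100A9 pair to form calprotectin, which binds calcium and metals and is sensed through TLR4. FPR1 and FPR2 are G protein-coupled receptors for formylated peptides from bacteria and mitochondria, CLEC4D is a C-type lectin that signals through FcR gamma and SYK, and TREM1 amplifies inflammatory signals through DAP12. Slpi encodes an inhibitor of elastase and cathepsin G, Retnlg a resistin-like secreted protein, and Stfa2l1 a stefin, an inhibitor of cysteine proteases. Monocytes and macrophages also transcribe several of these genes, among them Fpr1, Fpr2, Clec4d and Trem1.

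The promoters of both member pairs that lie close together in the genome are shown first, because the members of 1 pair kept a like profile over the libraries and those of the other did not. S100a8 and S100a9 lie on chromosome 3 with starts 26650 bases apart, transcribed towards each other. Fpr1 and Fpr2 lie on chromosome 17 with starts 3885 bases apart, transcribed away from each other. Each sequence runs 5′ to 3′ from 250 bases before the RefSeq start to 30 bases after it (GRCm38.p6). Capitals mark matches on either strand to TTGCNNAA, a half-site pair bound by C/EBP factors, GAGGAA, the core bound by PU.1, and TATAAA, the TATA box. The first lies at chr3:90668821-90669100 on the plus strand, the second at chr3:90695692-90695971 on the minus strand, the third at chr17:17883910-17884189 on the minus strand, and the fourth at chr17:17887574-17887853 on the plus strand.
S100a8: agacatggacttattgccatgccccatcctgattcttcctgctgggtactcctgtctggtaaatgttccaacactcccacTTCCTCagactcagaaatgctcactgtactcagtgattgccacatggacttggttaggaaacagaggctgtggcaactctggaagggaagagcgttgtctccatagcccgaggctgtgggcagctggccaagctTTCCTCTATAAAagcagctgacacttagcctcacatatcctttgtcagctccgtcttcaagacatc
S100a9: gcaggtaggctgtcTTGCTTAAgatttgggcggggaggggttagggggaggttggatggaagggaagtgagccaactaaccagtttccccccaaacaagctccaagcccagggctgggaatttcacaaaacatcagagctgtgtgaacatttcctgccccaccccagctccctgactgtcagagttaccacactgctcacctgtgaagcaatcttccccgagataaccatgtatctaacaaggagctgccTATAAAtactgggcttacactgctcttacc
Fpr1: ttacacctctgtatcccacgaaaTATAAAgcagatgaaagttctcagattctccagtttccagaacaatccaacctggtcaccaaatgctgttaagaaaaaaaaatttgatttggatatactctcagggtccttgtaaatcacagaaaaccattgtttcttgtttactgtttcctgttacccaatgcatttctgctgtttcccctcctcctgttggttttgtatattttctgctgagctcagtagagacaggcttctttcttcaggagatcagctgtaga
Fpr2: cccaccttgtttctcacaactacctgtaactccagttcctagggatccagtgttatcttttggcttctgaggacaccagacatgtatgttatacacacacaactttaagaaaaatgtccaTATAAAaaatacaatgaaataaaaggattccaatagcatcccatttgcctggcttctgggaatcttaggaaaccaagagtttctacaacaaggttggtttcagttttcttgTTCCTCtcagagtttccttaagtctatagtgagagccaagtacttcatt

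In the S100a8 window, matches to the PU.1 core began 170 and 36 bases before the start, and the second ran directly into the TATA box at 30 bases before it. The S100a9 window held a C/EBP match 236 bases before the start and a TATA match at the first base of the transcript. The Fpr1 window held a TATA match 227 bases before the start and no PU.1 core, whereas the Fpr2 window held a PU.1 core 19 bases and a TATA match 130 bases before its start. Over all 9 promoters, TTGCNNAA was present in 3, GAGGAA in 5 and TATAAA in 4. Among 32851 mouse promoter windows of the same length, 10.4% held TTGCNNAA, 26.0% held GAGGAA and 13.1% held TATAAA. A match is a description of the letters in these 280 bases and not a measured binding site.

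The WT libraries held 14332364, 10418101 and 27909 reads on genes, and the KO libraries 7056614 to 15569088. WT replicate 3 was thus a shallow library, 253 times below the shallowest of the other 5. A single read there came to 29.9 CPM (a normalised read count that puts all libraries on the same effective size), and 0 reads allowed up to 3 reads, or 89.6 CPM, against 0.198 to 0.475 CPM for 3 reads in the 5 deep libraries. Its values are therefore given as reads, with exact 95% Poisson intervals that cover counting error only. At 0 reads such an interval would reach 3.69 reads, or 110 CPM, above the limit of 3 reads used here. KO replicate 2 (15.74%) and WT replicate 3 (9.52%) had a higher share of mitochondrial reads than the other libraries (1.26% to 1.84%). Xist was read 5910 and 12107 times in WT replicate 2 and KO replicate 1, and Eif2s3y, a Y-linked gene, 0 times in both. The other libraries held 0 or 1 Xist read, with 4 Eif2s3y reads in WT replicate 3 and 865 to 1144 in the deep ones. Psip1, the targeted gene, stood at 89.3 CPM, 70.0 CPM and 3 reads over the WT libraries and at 14.8, 17.6 and 16.3 CPM over the KO libraries. Its log2 fold change was -2.32 (SE 0.32), with an adjusted p = 0.0599 by the quasi-likelihood test of edgeR, which misses 0.05.

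None of the 9 genes passed the test between genotypes. The fitted log2 fold change of KO against WT was positive for 6 and negative for 3, with a median of 0.21 beside 0.01 over all 12292 genes tested. The adjusted p of edgeR's quasi-likelihood test was 1 for each of the 9, and their lowest unadjusted p was 0.156, for Retnlg. That test called 0 genes of the whole table, a background of 0%. At an unadjusted p under 0.05 it gave 0 of the 9 members, where 178 genes of the table, or 1.45%, were below that level. DESeq2 on the same 6 libraries called 1 gene of 22237, or 0.0045%, which was not a member. For all 9 genes the WT and KO values overlapped, over the 5 deep libraries and over all 6. Genes whose groups did not overlap made up 8.66% of the table over the deep libraries and 4.77% over all 6. The 95% intervals of the 9 fold changes all included 0, and the narrowest, that of Fpr2, still ran from -0.70 to 1.08 on the log2 scale.

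**Figure D1:**
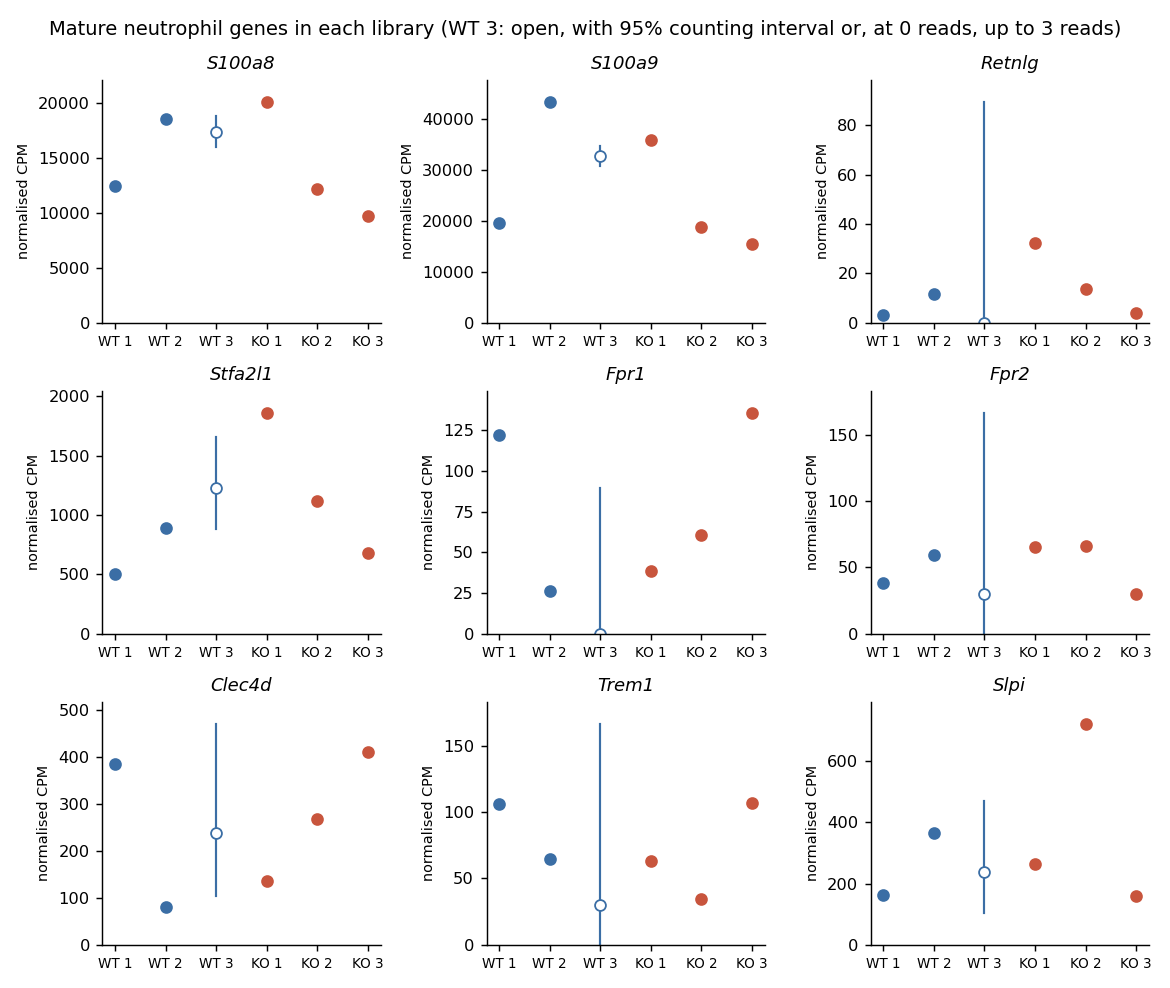
Normalised CPM (y axis, linear, from 0, a separate scale per gene) of the 9 genes in WT replicates 1 to 3 (blue) and KO replicates 1 to 3 (red), 1 point per library. The open point is the shallow WT replicate 3, with its 95% counting interval or, at 0 reads, a bar up to 3 reads. WT and KO points overlap in all 9 panels.

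The calprotectin genes were among the most read genes of the cultures, by read count without regard to length. S100a9 (ENSMUSG00000056071.12, chromosome 3, 90692632 to 90695721, minus strand, GRCm38) stood at 19617 CPM in WT replicate 1, 43350 CPM in WT replicate 2 and 35871, 18775 and 15393 CPM in KO replicates 1, 2 and 3. WT replicate 3 held 1092 reads, or 32619 CPM with an interval of 30713 to 34613. WT replicate 2 was the highest library and KO replicate 3 the lowest, and KO replicate 1 lay between the WT values. The means were 31862 ± 11884 CPM in WT and 23347 ± 10978 CPM in KO (SD, n = 3 each). The log2 fold change was -0.45 (SE 0.63, 95% interval -1.83 to 0.93), smaller than the spread between replicates, and an exact two-sided permutation test of the 3 against 3 libraries gave p = 0.4, where 0.1 is the smallest value this design allows. By read count S100a9 ranked 1 in 4 of the deep libraries and 4 in KO replicate 2, and S100a8 ranked 2 or 3 in the same 4 libraries and 7 in KO replicate 2.

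S100a8 (ENSMUSG00000056054.9, chromosome 3, 90668978 to 90670035, plus strand), its partner, stood at 12437 CPM in WT replicate 1, 18571 CPM in WT replicate 2 and 20136, 12198 and 9736 CPM in KO replicates 1, 2 and 3. In WT replicate 3 it had 582 reads, or 17385 CPM with an interval of 16001 to 18857. KO replicate 1 was highest here and KO replicate 3 lowest, and the remaining 4 libraries lay between them. The means were 16131 ± 3254 CPM in WT and 14023 ± 5435 CPM in KO (SD, n = 3 each). The log2 fold change was -0.20 (SE 0.55, 95% interval -1.40 to 1.00; exact permutation p = 0.6), and 0.04 without KO replicate 3. Together with S100a9 it took 2.45% of the gene reads in KO replicate 3, the lowest library, and 6.07% in WT replicate 2, the highest of the deep ones.

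The pair kept a narrow range of ratios. The reads of S100a9 divided by those of S100a8 came to 1.58 and 2.33 in WT replicates 1 and 2, and to 1.78, 1.54 and 1.58 in KO replicates 1, 2 and 3. In the shallow WT replicate 3 the ratio was 1.88. Per exon length, the S100a9 level was 2.05 to 3.10 times that of S100a8 in the deep libraries. Their centred log2 profiles over the 5 deep libraries differed by a root mean square of 0.22.

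Both formyl peptide receptor genes went different ways between libraries of the same genotype. Fpr1 (ENSMUSG00000045551.7, chromosome 17, 17876471 to 17883940, minus strand) stood at 122 CPM in WT replicate 1, 26.1 CPM in WT replicate 2 and 38.6, 60.9 and 136 CPM in KO replicates 1, 2 and 3. In WT replicate 3 it had 0 reads, which allows up to 89.6 CPM. WT replicate 1 and KO replicate 3 were the high libraries and WT replicate 2 and KO replicate 1 the low ones, so that each genotype held both. The KO mean was 78.4 ± 50.8 CPM (SD, n = 3). The log2 fold change was 0.21 (SE 0.65, 95% interval -1.22 to 1.64; exact permutation p = 0.4). It was -0.30 without WT replicate 2, -0.43 without KO replicate 3 and 1.74 without WT replicate 1, so that its sign rested on single libraries. The permutation test took the 0 reads of WT replicate 3 as the lowest value, although they only set an upper limit.

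Fpr2 (ENSMUSG00000052270.7, chromosome 17, 17887824 to 17893952, plus strand) stood at 37.9 CPM in WT replicate 1, 59.1 CPM in WT replicate 2 and 65.4, 66.3 and 29.95 CPM in KO replicates 1, 2 and 3. The shallow WT replicate 3 held 1 read, with an interval of 0.0253 to 5.57 reads. Here WT replicate 1 and KO replicate 3 were the low libraries, the reverse of Fpr1. The KO mean was 53.9 ± 20.7 CPM (SD, n = 3). Its log2 fold change was 0.19 (SE 0.41, 95% interval -0.70 to 1.08; exact permutation p = 0.5). With 1 read in WT replicate 3, the permutation test used a value whose interval ran from 0.756 to 166 CPM, across every other library. The reads of Fpr1 divided by those of Fpr2 came to 3.22 and 0.442 in WT replicates 1 and 2, and to 0.591, 0.919 and 4.53 in KO replicates 1, 2 and 3. The receptor read more was thus Fpr1 in 1 WT and 1 KO library and Fpr2 in the other 3. Of the neighbouring relatives, Fpr3, Fpr-rs3, Fpr-rs4, Fpr-rs6 and Fpr-rs7 had 0 reads in all 6 libraries, which in the deep libraries allows no more than 0.475 CPM.

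**Figure D2:**
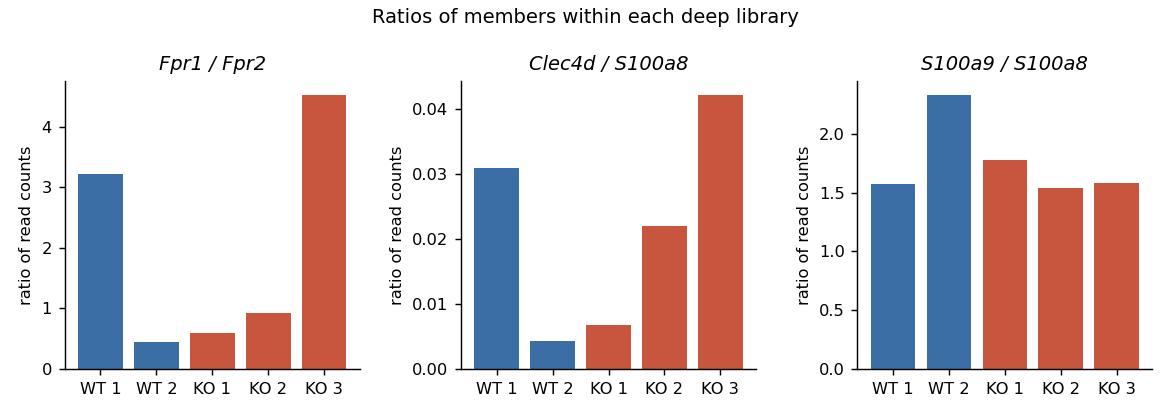
Ratios of read counts within each of the 5 deep libraries (bars from 0, WT blue, KO red, 1 bar per library) for Fpr1 over Fpr2, Clec4d over S100a8 and S100a9 over S100a8. The first 2 ratios are highest in WT replicate 1 and KO replicate 3, while the S100a9 over S100a8 ratio stays between 1.54 and 2.33.

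The innate receptor genes Clec4d and Trem1 were also highest in WT replicate 1 and KO replicate 3. Clec4d (ENSMUSG00000030144.4, chromosome 6, 123262111 to 123275265, plus strand) stood at 386 CPM in WT replicate 1, 80.5 CPM in WT replicate 2 and 137, 269 and 411 CPM in KO replicates 1, 2 and 3. WT replicate 3 held 8 reads, or 239 CPM with an interval of 103 to 471. Both genotypes spanned the low and the high end. The means were 235 ± 153 CPM in WT and 272 ± 137 CPM in KO (SD, n = 3 each), with a log2 fold change of 0.22 (SE 0.57, 95% interval -1.03 to 1.47; exact permutation p = 0.6). It was -0.26 without WT replicate 2 and -0.19 without KO replicate 3. Beside the abundant S100a8, Clec4d reads came to 0.0310 and 0.00433 per S100a8 read in WT replicates 1 and 2, and to 0.00678, 0.0220 and 0.0422 in KO replicates 1, 2 and 3.

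Trem1 (ENSMUSG00000042265.13, chromosome 17, 48232768 to 48246924, plus strand) stood at 106 CPM in WT replicate 1, 64.8 CPM in WT replicate 2 and 63.4, 34.2 and 107 CPM in KO replicates 1, 2 and 3, with 1 read in WT replicate 3. KO replicate 2 was the lowest of the deep libraries, and the KO mean was 68.2 ± 36.7 CPM (SD, n = 3). Its log2 fold change was -0.23 (SE 0.46, 95% interval -1.23 to 0.77; exact permutation p = 0.9), and 0.24 and 0.09 without WT replicate 1 and without KO replicate 2. As for Fpr2, the permutation test rested on 1 read in WT replicate 3, whose interval of 0.756 to 166 CPM spans every other library. Trem3, a neighbour that likewise signals through DAP12, showed 74.0 CPM in WT replicate 1, 153 CPM in WT replicate 2 and 152, 42.6 and 77.3 CPM over KO replicates 1, 2 and 3. The reads of Trem1 per Trem3 read were therefore 1.43 (WT replicate 1) and 1.38 (KO replicate 3), with 0.418 to 0.803 for the other deep libraries.

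Stfa2l1, Retnlg and Slpi followed other orders. Stfa2l1 (ENSMUSG00000059657.4, chromosome 16, 36156811 to 36161953, plus strand) stood at 501 CPM in WT replicate 1, 887 CPM in WT replicate 2 and 1860, 1120 and 680 CPM in KO replicates 1, 2 and 3. The 41 reads in WT replicate 3 gave 1225 CPM with an interval of 879 to 1661. KO replicate 1 was highest and WT replicate 1 lowest, and KO replicate 3 lay between the deep WT libraries. The means were 871 ± 362 CPM in WT and 1220.0 ± 597 CPM in KO (SD, n = 3 each), with a log2 fold change of 0.53 (SE 0.48, 95% interval -0.52 to 1.58; exact permutation p = 0.5). Without the shallow library it was 0.81 (SE 0.51).

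Stfa2l1 belongs to a cluster of near copies, in which a read that matches more than 1 gene equally well is lost from all of them, so its level is uncertain. It held 11.8% to 15.1% of the reads of the 9 stefin genes of the cluster in each deep library, and 12.2% in WT replicate 3. Of 8 further cluster genes with a row, 7 were tested, with 6 positive fold changes, 1 negative, a median log2 fold change of 0.52 and 0 called. The most read were BC100530 (0.52, SE 0.51), Gm5483 (0.14, SE 0.55) and Stfa2 (0.52, SE 0.48). In edgeR's fit Stfa3 (0.87, SE 0.36) and Gm5416 (0.93, SE 0.38) had unadjusted p = 0.0346 and 0.0321 and adjusted p of 1. These 2 were singled out after their values were seen.

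Retnlg (ENSMUSG00000022651.5, chromosome 16, 48872621 to 48874496, plus strand) had few reads, from 40 to 410 in the deep libraries. It stood at 2.90 CPM in WT replicate 1, 11.7 CPM in WT replicate 2 and 32.3, 13.4 and 3.83 CPM in KO replicates 1, 2 and 3. WT replicate 3 held 0 reads, a limit of 89.6 CPM that lies above every other library. KO replicate 3 lay between the deep WT libraries, and the KO libraries spanned 8.43-fold around a mean of 16.5 ± 14.5 CPM (SD, n = 3). The log2 fold change of 1.21 was the largest of the 9 and also the least certain (SE 0.79, 95% interval -0.54 to 2.96; exact permutation p = 0.2). Here too the permutation test took the 0 reads of WT replicate 3 as the lowest value. The related Retnla, an alternative activation marker of macrophages, had 96, 19 and 30 reads in WT replicate 2, KO replicate 1 and KO replicate 2 and 0 in the other 3 libraries.

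Slpi (ENSMUSG00000017002.14, chromosome 2, 164354070 to 164389095, minus strand) stood at 162 CPM in WT replicate 1, 364 CPM in WT replicate 2 and 264, 721 and 160 CPM in KO replicates 1, 2 and 3. WT replicate 3 held 8 reads, or 239 CPM with an interval of 103 to 471. KO replicate 2 stood apart above all others, and KO replicate 3 was the lowest. The means were 255 ± 102 CPM in WT and 382 ± 298 CPM in KO (SD, n = 3 each), with a log2 fold change of 0.56 (SE 0.55, 95% interval -0.64 to 1.77; exact permutation p = 0.7). Without KO replicate 2 it was -0.28. That library also had the highest mitochondrial share, 15.74%, and the part this plays in the Slpi level was not tested. The reads of Slpi per read of Elane, the elastase it inhibits, came to 2.28 in KO replicate 2 and to 0.162 to 0.649 in the other deep libraries.

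**Figure D3:**
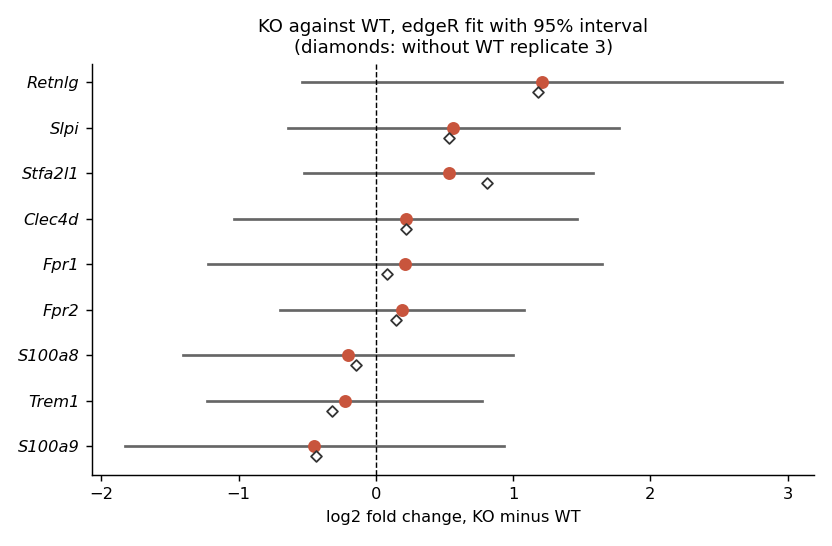
Fitted log2 fold change of KO against WT (x axis) for the 9 genes, with 95% intervals from the quasi-likelihood fit of edgeR on all 6 libraries (red points) and the value without WT replicate 3 (open diamonds). All 9 intervals cross 0, with Retnlg (1.21) at the top and S100a9 (-0.45) at the bottom.

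Per exon length, as CPM per kilobase of exon (RPKM), the order of levels over the 5 deep libraries started with S100a9 at a median of 37581 (range 29489 to 83046), S100a8 at 17921 (14029 to 29015) and Stfa2l1 at 2116 (1197 to 4440). The ranges of these 3 did not overlap with each other or with that of the next gene. Slpi followed at 224 RPKM (135 to 611), Clec4d at 168 (50.3 to 257), Fpr1 at 46.0 (19.7 to 102), Fpr2 at 45.6 (23.1 to 51.1), Trem1 at 21.6 (11.4 to 35.7) and Retnlg at 19.8 (4.90 to 54.4). From Slpi downwards each range overlapped with the next. Clec4d lay above Fpr1 in 5 of 5 libraries, whereas Slpi lay above Clec4d in 3, Fpr1 above Fpr2 in 2, Fpr2 above Trem1 in 3 and Trem1 above Retnlg in 3.

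Differences between libraries of 1 genotype were wide for these genes. Between WT replicates 1 and 2 the median absolute difference was 1.14 on the log2 scale for the 9 genes and 0.57 for all genes tested. S100a9, Retnlg, Fpr1, Clec4d and Slpi differed more than 2-fold there, which is 5 of 9 beside 24.6% of the table. Among the KO libraries the highest value was more than 2 times the lowest for 9 of 9, beside 31.3% of the table. The median log2 range over the KO libraries was 1.59, against 0.72 for all genes.

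The 9 genes showed 2 patterns over the deep libraries. Fpr1, Clec4d and Trem1 were higher in WT replicate 1 than in WT replicate 2, by 2.22, 2.26 and 0.71 on the log2 scale, and higher in KO replicate 3 than in KO replicate 1, by 1.81, 1.59 and 0.75. S100a8, S100a9, Retnlg, Stfa2l1, Fpr2 and Slpi lay the other way in both genotypes, from -0.58 for S100a8 to -1.99 for Retnlg in WT and from -0.73 for Slpi to -3.05 for Retnlg in KO. All 9 kept their sign in both pairs of libraries, and so did 84% of all genes tested, so the shared direction is not particular to the members. WT replicate 2 and KO replicate 1 are the libraries with Xist reads, and WT replicate 1 and KO replicate 3 have Eif2s3y reads. The 2 pairs were chosen after the values were seen. KO replicate 2, which also has Eif2s3y reads, lay on the side of KO replicate 3 for S100a8, S100a9, Retnlg, Stfa2l1, Fpr1 and Clec4d, with 0.417 to 0.606 times the KO replicate 1 level for the first 4 and 1.58 and 1.97 times for Fpr1 and Clec4d. It did not for Trem1 (0.539 times), Slpi (2.73 times) or Fpr2 (1.01 times). What sets the libraries apart was not tested.

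**Figure D4:**
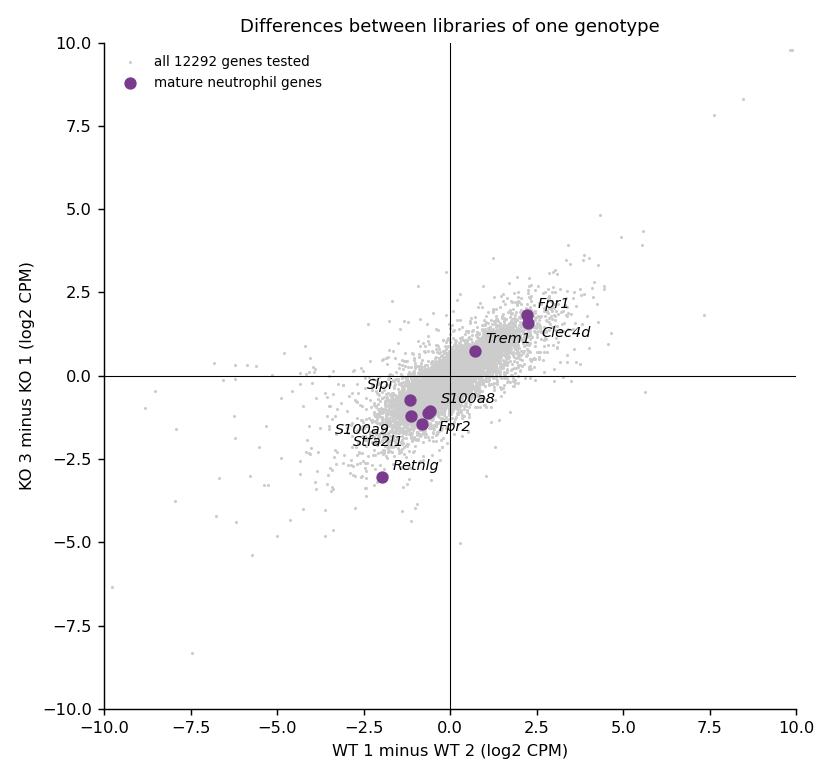
Difference in log2 CPM between WT replicates 1 and 2 (x axis) and between KO replicates 3 and 1 (y axis), for all 12292 genes tested (grey) and the 9 mature neutrophil genes (purple). Fpr1, Clec4d and Trem1 lie in the upper right and the other 6 in the lower left, within a cloud in which 84% of genes share their sign on both axes.

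Compared within libraries of like Xist and Eif2s3y reads, the genotypes gave mixed orders. Among the libraries with Xist reads, KO replicate 1 over WT replicate 2 gave 2.74 for Retnlg, 2.10 for Stfa2l1, 1.70 for Clec4d, 1.48 for Fpr1, 1.11 for Fpr2 and 1.08 for S100a8, and below 1 for S100a9 (0.827), Trem1 (0.978) and Slpi (0.727). Among those with Eif2s3y reads, KO replicate 3 over WT replicate 1 gave 1.36 for Stfa2l1, 1.32 for Retnlg, 1.11 for Fpr1, 1.07 for Clec4d and 1.01 for Trem1, and 0.984 for Slpi and 0.783, 0.785 and 0.791 for S100a8, S100a9 and Fpr2. KO replicate 2 over WT replicate 1 gave 4.63 for Retnlg, 2.23 for Stfa2l1 and 4.44 for Slpi but 0.499 for Fpr1 and 0.322 for Trem1. Retnlg and Stfa2l1 were thus above their WT library in all 3 of these comparisons. S100a9 was below its WT library in all 3, with 0.957 for KO replicate 2 over WT replicate 1. Each comparison is of 1 library against 1, and the last 2 share their WT library. The share of all genes that keep 1 direction over the 3 was not counted. The shallow WT replicate 3, with 4 Eif2s3y and 0 Xist reads, was left out of these comparisons. Its Stfa2l1 level of 1225 CPM (interval 879 to 1661) lay above KO replicate 2 (1120 CPM) and KO replicate 3 (680 CPM). That library held 0 reads of Retnlg, and its S100a9 level of 32619 CPM also lay above both. A fit with a term for Xist or Eif2s3y reads gave Retnlg a log2 fold change of 1.51 (edgeR, unadjusted p = 0.0153, adjusted p = 1) and Stfa2l1 one of 0.47 (unadjusted p = 0.329, adjusted p = 1). The same term over the 5 deep libraries, an alternative chosen after seeing the data, gave 1.49 for Retnlg and 0.94 for Stfa2l1 (edgeR, unadjusted p = 0.0442 and 0.0337, adjusted p = 1 for both). S100a9 stood at -0.50 with the term over all 6 libraries and at -0.23 over the 5 deep ones (edgeR, unadjusted p = 0.352 and 0.551).

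Genes with the most similar profile over the 5 deep libraries were sought among 9067 genes with a mean of at least 10 CPM there, by the root mean square difference of centred log2 values. For Fpr1 they were Tlr2 (0.064), Plekhm3 (0.11) and Nrip1 (0.12), and for Clec4d Zeb2 (0.089), P2rx7 (0.11) and Mcoln2 (0.12). Tlr2, a receptor for bacterial lipoproteins, stood at 394 CPM in WT replicate 1, 82.3 CPM in WT replicate 2 and 119, 187 and 384 CPM in KO replicates 1, 2 and 3. It was high, as Fpr1 was, in WT replicate 1 and KO replicate 3. Retnlg came closest to Mmp9 (0.12), the gelatinase of late neutrophil granules, followed by Card10 (0.20) and Ceacam10 (0.32). Mmp9 stood at 6.17 CPM in WT replicate 1, 23.7 CPM in WT replicate 2 and 54.6, 23.6 and 7.72 CPM over KO replicates 1, 2 and 3, with KO replicate 1 highest in both genes. Stfa2l1 was nearest to Agrn (0.082), its cluster neighbour Gm5483 (0.092) and C5ar2 (0.16). S100a9 was nearest to Stmn1 (0.074), Amd1 (0.095) and Cdkn2d (0.10), and S100a8 to Nudt7 (0.061), Grk6 (0.090) and Snx11 (0.092). For Slpi the list was led by the ribosomal protein genes Rpl11 (0.12) and Rpl9 (0.14), then Chchd2 (0.15), all highest in KO replicate 2. From uniquely mapped reads alone, Rpl11 stood at 5.88 to 28.95 CPM and Rpl9 at 12.2 to 45.4 CPM over the deep libraries. KO replicate 2 also had the highest share of reads mapped to several places, 27.02%. The part of this share in these levels was not tested. Fpr2 came nearest to Dlg4 (0.056), B4galt3 (0.061) and 2310001H17Rik (0.069), and Trem1 to Vgll4 (0.037), Man2a1 and Ncapg2 (0.068 each). The mean profile of the 9 members was closest to Ptger2 (0.043), Arl2bp (0.054) and Dhx35 (0.059). Within the members the closest profiles were those of Fpr1 and Clec4d (0.20) and of S100a8 and S100a9 (0.22), and the farthest those of Retnlg and Fpr1 (2.07). With 5 libraries and 9067 genes searched, close matches arise readily, and the values are descriptions.

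In the gene families around the members no gene was called either, against the same background of 0%. Of 9 Clec4 cluster genes 8 were tested, 4 positive and 4 negative (median log2 fold change 0.05). Clec4e, the partner receptor of Clec4d, stood at 646 CPM in WT replicate 1, 74.4 CPM in WT replicate 2 and 96.4, 170 and 432 CPM in KO replicates 1, 2 and 3. Clec4n, which encodes dectin-2, stood at 472 CPM in WT replicate 1, 77.3 CPM in WT replicate 2 and 215, 338 and 746 CPM over KO replicates 1, 2 and 3. Both were thus high in WT replicate 1 and KO replicate 3, as Clec4d was, whereas Clec12a, an inhibitory lectin, stood at 272 CPM in WT replicate 1, 557 CPM in WT replicate 2 and 521, 223 and 240 CPM over KO replicates 1, 2 and 3. Of 11 further S100 genes 6 were tested, 5 positive and 1 negative (median 0.09). S100a6 (0.10, SE 0.53), S100a11 (-0.04, SE 0.54) and S100a10 (0.48, SE 0.45) were the most read, and S100a16 and S100b had 0 reads in all libraries. The 5 further Trem genes gave 4 positive and 1 negative value (median 0.33), and of 8 further genes with a WAP domain, the inhibitory domain of Slpi, 3 were tested, 2 positive and 1 negative (median 0.13).

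Genes of the pathways around the members gave counts on both sides of 0, and 0 were called. Of 28 other late neutrophil genes 14 were positive and 14 negative (median log2 fold change -0.02), among them the chemokine Ccl6 (0.37, SE 0.47), the cytokine receptor subunit Csf2rb (0.59, SE 0.62) and annexin Anxa1 (0.34, SE 0.38), whose product acts on formyl peptide receptors. Of 26 receptors, adaptors and targets of the member proteins 17 were positive and 9 negative (median 0.16). Grn, whose product SLPI protects from elastase, stood at 0.23 (SE 0.38), the G protein subunit Gnai2 at -0.04 (SE 0.36), and Tyrobp, which encodes DAP12, the fourth most read of the list and named after its values were seen, at 0.32 (SE 0.34). Granulocyte transcription factors gave 5 positive and 7 negative values of 12 (median -0.05), with Spi1, which encodes PU.1, at 0.01 (SE 0.40), Runx1 at 0.16 (SE 0.38) and Stat3 at -0.06 (SE 0.36).

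Genes of earlier granule stages leaned to negative values without passing the test. The log2 fold change was negative for all 10 secondary granule genes (median -0.28), including Ngp (-0.33, SE 0.64), Chil3 (-0.23, SE 0.59) and lactoferrin, Ltf (-0.58, SE 0.64). Of 10 primary granule genes 8 were negative and 2 positive (median -0.50), including Mpo (-0.41, SE 0.66), Prtn3 (-0.61, SE 0.64) and Elane (-0.79, SE 0.79). Among all 12292 genes tested, 5897 were negative and 6392 positive. Both granule lists share libraries and cells, so their genes are not independent. Between WT replicates 1 and 2 their median absolute log2 difference was 1.42 for secondary granule genes and 1.51 for primary granule genes, beside 1.14 for the 9 members. S100a8 reads per Ngp read were 1.54 (WT replicate 1), 0.938 (WT replicate 2), 1.11, 2.32 and 1.52 (KO replicates 1 to 3). The ratio came to 1.85 in the shallow WT replicate 3.

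The colonies held other myeloid cells, and in bulk RNA a smaller share of neutrophils and less of a transcript per neutrophil cannot be told apart. The 9 members summed to 33372, 63414 and 51766 CPM in WT replicates 1, 2 and 3 and to 58468, 33258 and 26656 CPM in KO replicates 1, 2 and 3, most of it from S100a8 and S100a9. Monocyte and macrophage markers, all 14 of 14 tested, summed to 1135 to 2431 CPM in WT and 1747 to 2482 CPM in KO, and the sum was highest in WT replicate 1 and KO replicate 3, the libraries in which Fpr1, Clec4d and Trem1 were high. The markers did not go together, however: 6 of the 14 were higher in WT replicate 1 than in WT replicate 2, and the list's median log2 difference was -0.36 between these and -0.10 between KO replicates 3 and 1. Csf1r, the macrophage growth factor receptor and the fourth most read of that list, stood at 485 CPM in WT replicate 1, 133 CPM in WT replicate 2 and 158, 169 and 442 CPM over KO replicates 1, 2 and 3. It was named after its values were seen. Eosinophil markers, 8 of 9 tested, summed to 239 to 1742 CPM in WT and 517 to 1826 CPM in KO, again highest in WT replicate 1 and KO replicate 3, with Prg2 at 976 and 1054 CPM there. Mast cell markers, 11 of 11 tested, summed to 4242 to 5851 CPM in WT and 3379 to 10255 CPM in KO, and KO replicate 2, in which Slpi was high, was the highest. This list was split as well: Cpa3 (3453 CPM) and Mcpt8 (2874 CPM) were highest in KO replicate 2, but Prss34 was highest in WT replicate 2 (1139 CPM). Kit, named after its values were seen, was lowest of the deep libraries in KO replicate 2 (102 CPM). Erythroid markers, 7 of 10 tested, summed to 49.9 to 388 CPM in WT and 22.4 to 156 CPM in KO. Lymphoid markers, 1 of 9 tested, summed to at most 9.01 CPM in any library, with Cd3e, Cd3g, Ms4a1 and Cd8a at 0 reads in all 6. The part of monocytes, eosinophils and mast cells in the levels of the members was not tested.

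**Figure D5:**
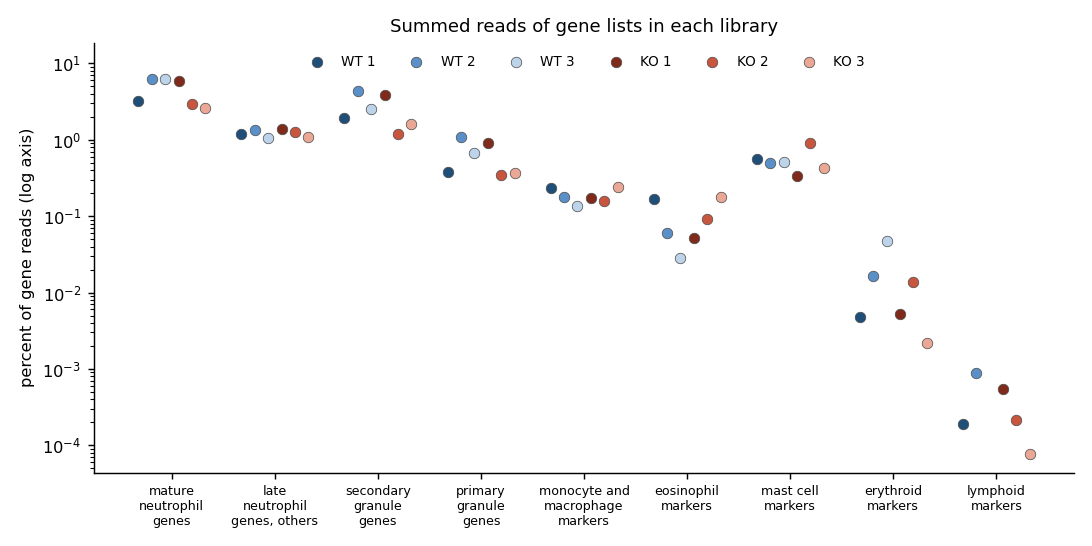
Summed reads of the 9 mature neutrophil genes and of 8 marker lists as percent of gene reads (y axis, logarithmic), 1 point per library, WT in blues and KO in reds. The members range from 2.59% in KO replicate 3 to 6.22% in WT replicate 2, eosinophil markers are highest in WT replicate 1 and KO replicate 3, and lymphoid markers reach at most 0.000883% (0 in WT replicate 3, not drawn).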

How the data were processed

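The authors' deposited counts are uniquely mapped reads per gene, 1 table per sequencing run, in the layout of STAR's gene counter. STAR 2.5.1b, GRCm38 and DESeq2 (no role given) are named per the submitters' processing notes, and the annotation release was not given in the sources used here. The counts on the strand opposite to the read were used, since the TruSeq Stranded mRNA kit of the labels' protocols reverses the strand. They held 95.6% to 97.5% of stranded gene reads. Both runs of WT replicate 3 (27351 and 558 gene reads) were summed. Rows that name no gene held 25.64% to 47.81% of reads and were left out. Gene identifiers were matched without their version to symbols, 46488 of 46983. Reads on the other strand of the 9 genes came to at most 0.314% of theirs over the deep libraries.

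Counts were filtered with filterByExpr, scaled by TMM and passed to glmQLFTest of edgeR 4.0.16 under R 4.3.3 (robust glmQLFit), two-sided, genotype as the only term, with Benjamini-Hochberg adjustment over 12292 genes and a threshold of 0.05. The standard error of a log2 fold change was taken as its size over the square root of F. The test was tested on simulated data. DESeq2 1.42.0 and limma 3.58.1 served as alternatives, and exact permutation tests used scipy 1.17.1. RPKM are CPM divided by the exon length of the annotation in kilobases.

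The 9 genes and the 17 gene lists around them were chosen with earlier results of these data known. The lists cover other late neutrophil genes, secondary and primary granule genes, partners and signalling, granulocyte transcription factors, 7 families (stefin A, formyl peptide receptor, S100, Clec4, Trem, resistin, WAP domain) and markers of monocytes and macrophages, mast cells, eosinophils, erythroid and lymphoid cells. Of their symbols 10 were not matched. Of each list the 3 most read genes could be named, and of each family any gene with at least 10 reads in a library. For each member the 3 genes of most similar profile could be named. Csf1r, Kit, Tyrobp, Stfa3, Gm5416 and the sex-linked Xist and Eif2s3y were named after their values were seen. Promoters are RefSeq sequences of GRCm38.p6, matched by symbol for 9 of 9 genes.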

Additional observations from a re-analysis of the deposited data

How the results depend on the processing

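Of 171 fold changes of the 9 genes under 19 alternatives (15 planned and 4 chosen after seeing the data), 0 passed the threshold, 161 kept their direction and 10 reversed, and the lowest adjusted p was 0.64 (edgeR, Fpr1 without WT replicate 1). S100a9, Retnlg and Stfa2l1 kept their direction in all 19. The reversed log2 fold changes were S100a8 at 0.036, Fpr1 at -0.43 and Clec4d at -0.19 without KO replicate 3, Fpr1 at -0.30 and Clec4d at -0.26 without WT replicate 2, Trem1 at 0.24 without WT replicate 1 and 0.09 without KO replicate 2, and Slpi at -0.28 without KO replicate 2. With neither WT replicate 3 nor KO replicate 2, Slpi stood at -0.31 and Fpr2 at -0.029. Leaving out 1 library at a time gave -0.56 to 0.04 for S100a8, -0.90 to -0.13 for S100a9, 0.27 to 2.53 for Retnlg, 0.08 to 0.85 for Stfa2l1, -0.43 to 1.74 for Fpr1, 0.003 to 0.54 for Fpr2, -0.26 to 1.30 for Clec4d, -0.69 to 0.24 for Trem1 and -0.28 to 1.07 for Slpi. The number of genes called in the whole table was 0 in the edgeR test, 2 with library size only, 9 with no filter on low counts, 1 with DESeq2, 12 with DESeq2 on the 5 deep libraries, 4 with a term for Xist or Eif2s3y, and 0 to 5 with 1 library left out, with no member of the 9 among them. Psip1 passed with no filter (-2.28), with the Xist or Eif2s3y term (-2.34), with the replicate block (-2.33) and with DESeq2 on the deep libraries (-2.32), and lay between -2.45 and -2.12 with 1 library left out. The cause of these changes was not tested. Deviations from the group means correlated at -0.27, -0.03 and -0.13 between same-numbered WT and KO libraries, and best at 0.37 between WT replicate 1 and KO replicate 3. The WT mean includes the shallow WT replicate 3, so these values cannot tell whether replicate numbers pair the samples. The replicate block called 13 genes and gave Retnlg 1.83 and Fpr2 0.43, with no call among the 9. TMM, DESeq2 size factors and library size alone put the median of all genes at 0.01, 0.04 and -0.03. Each of the 9 genes kept its direction under these scalings. Depth limits WT replicate 3 most: 1 read there came to 29.9 CPM, and 0 reads still allowed up to 89.6 CPM.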

Other observations

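In the stefin cluster on chromosome 16, Stfa1 and 2010005H15Rik had other profiles than Stfa2l1, unlike Gm5483 and Stfa2, whose profiles were near it (root mean square log2 difference 0.092 and 0.20). Stfa1, another inhibitor of cysteine proteases, had 33, 6157 and 0 reads over WT replicates 1 to 3 and 128, 2609 and 49 reads over KO replicates 1 to 3. Its neighbour 2010005H15Rik had 1, 714 and 0 reads over WT replicates 1 to 3 and 1, 686 and 4 reads over KO replicates 1 to 3. Both were thus high in WT replicate 2 and KO replicate 2, whereas Stfa2l1 was highest in KO replicate 1 and differed 2.74-fold at most among the KO libraries. The stefin genes are near copies, and reads that match several of them equally are missing from all.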
